A study of Mus musculus with 24 samples.

Results

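Genes that osteoblasts and osteocytes, the bone-forming and bone-embedded cells, are known for were followed across the jaws of E13.5 mouse embryos that lack the TGF-beta receptor Tgfbr2 in the neural crest. The 10 genes Dmp1, Ibsp, Spp1, Alpl, Sp7, Runx2, Phex, Mepe, Ifitm5 and Cdh11 were taken by symbol. A gene was measured where a probe set of the array maps to that symbol alone. This held for 8 of the 10 genes, through 13 probe sets, out of 18194 genes on the array. Spp1 and Runx2 were not analysed here. For each gene the brightest probe set, by its mean over 24 arrays, was used, and its other probe sets are given beside it. A gene was tested if its probe set exceeded the array's 40th percentile on 3 or more arrays. This kept 7 of the 8 measured genes and 13850 genes in all.

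Mutant embryos came from matings of Wnt1cre;Tgfbr2 fl/+ mice with Tgfbr2 fl/fl mice and were identified by their cleft palate and a defect of the skull vault. Control embryos were littermates whose Cre status is not given, all labelled C57B6. Mandible and maxilla were each cut into a distal and a proximal end, which gives 8 groups of 3 arrays: mutant and control, each for the distal mandible, the proximal mandible, the distal maxilla and the proximal maxilla. The Wnt1 promoter directs Cre to premigratory neural crest, so blood, endothelium, muscle and epithelium of these jaws keep the receptor. Whether an array held 1 embryo or a pool is not given, and the labels do not call the replicates separate animals, so p-values measure only the spread between these samples, part of which may be technical. All values are log2 intensities, and a difference of 1 is a doubling of signal. Probe sets of different genes differ in response, so levels were not compared between genes.

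The facial skeleton forms largely by intramembranous ossification, in which neural crest mesenchyme condenses and turns directly into osteoblasts without a cartilage model. Runx2 and then Sp7 (osterix) are the transcription factors that commit a cell to this fate. Osteoblasts next make alkaline phosphatase and a collagen matrix with bone sialoprotein, and cells that become buried in it as osteocytes turn on Dmp1, Phex and Mepe, whose products govern mineral and phosphate.

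Across the arrays a few features of the samples bear on what follows. The 4 arrays of one genotype with the same replicate number, called a set from here on, carried like sex-linked transcripts: mutant sets 2 and 3 held both Xist (12.89 to 13.69) and Y-linked transcripts (mean 8.34 to 9.43), which no control set did. Control sets 2 and 3 held Xist (13.53 to 13.81) with low Y-linked signal (3.72 to 4.04). Set 1 of each genotype held Y-linked transcripts (9.82 to 10.07) with low Xist (6.15 to 6.98). Sex-linked make-up thus differed between the genotypes, and its part in the bone gene values was not tested. The excess of 3' over 5' signal of the Gapdh control probes, a measure of RNA degradation, was 0.25 to 0.77 on the arrays of mutant sets 1 and 3 and 0.04 to 0.10 in mutant set 2, against -0.07 to 0.16 on control arrays. Tgfbr2 itself read 12.20 to 12.68 on mutant and 11.94 to 12.33 on control arrays. Averaged over the 4 regions it was 0.31 ± 0.0543 (SE) higher in mutants (limma, adjusted p = 0.000296). Such an average counts the 4 arrays of a set as separate samples. With 1 value per set 80 genes passed it, against 4671. Tgfbr2 passed in no single region (adjusted p 0.0523 to 0.341). The position of its probes relative to the deleted part is not given, so this checks neither the deletion nor the labels. In whole jaw tissue, fewer cells of a type and less RNA per cell cannot be told apart.

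Dmp1, Ibsp, Mepe and Spp1 lie next to each other on chromosome 5, in that order in the RefSeq gene table, with the lncRNA Gm31048 between Dmp1 and Ibsp and the tooth matrix gene Dspp just before Dmp1. The promoters of the gene that differed most between the genotypes, of its measured neighbour Ibsp and of Ifitm5, whose brightest probe set differed most between the mutant proximal ends of the jaws, are shown here to make these start regions concrete. Each is the RefSeq GRCm38.p6 stretch from 250 bases before a gene's start to 50 bases after it, on the gene's strand. The first 2 lines are the annotated starts of Dmp1 (chr5:104197325-104197624 and chr5:104202367-104202666, plus strand), followed by Ibsp (chr5:104299037-104299336, plus strand) and Ifitm5 (chr7:140950194-140950493, minus strand). Capitals mark matches, on either strand, to 5 motifs: TGTGGT (core of RUNX sites), TGCGGT (a variant of it), TAATTA (homeodomain core), TATAAA (the TATA box) and CCAAT.
Dmp1 start 1: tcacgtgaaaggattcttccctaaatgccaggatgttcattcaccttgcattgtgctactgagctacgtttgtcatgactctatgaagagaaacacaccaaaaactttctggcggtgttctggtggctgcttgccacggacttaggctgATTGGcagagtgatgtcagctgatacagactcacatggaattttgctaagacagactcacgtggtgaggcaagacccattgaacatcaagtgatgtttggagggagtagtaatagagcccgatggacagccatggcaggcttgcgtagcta
Dmp1 start 2: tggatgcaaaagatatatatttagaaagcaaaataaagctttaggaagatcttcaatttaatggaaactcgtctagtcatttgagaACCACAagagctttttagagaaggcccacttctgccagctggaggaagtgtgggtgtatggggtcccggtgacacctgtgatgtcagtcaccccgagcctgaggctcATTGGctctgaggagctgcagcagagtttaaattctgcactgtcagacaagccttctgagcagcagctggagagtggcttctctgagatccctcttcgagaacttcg
Ibsp: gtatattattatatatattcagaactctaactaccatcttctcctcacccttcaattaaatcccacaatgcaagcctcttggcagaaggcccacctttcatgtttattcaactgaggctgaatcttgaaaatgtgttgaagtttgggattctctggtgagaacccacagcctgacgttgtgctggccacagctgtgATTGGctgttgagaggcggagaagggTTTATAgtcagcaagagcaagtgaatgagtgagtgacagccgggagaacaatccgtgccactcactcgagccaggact
Ifitm5: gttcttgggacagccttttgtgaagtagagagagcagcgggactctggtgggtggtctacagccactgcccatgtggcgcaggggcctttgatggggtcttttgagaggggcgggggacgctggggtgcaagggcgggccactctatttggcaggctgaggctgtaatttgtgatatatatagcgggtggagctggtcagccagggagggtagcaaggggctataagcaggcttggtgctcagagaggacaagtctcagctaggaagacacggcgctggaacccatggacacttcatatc
Both Dmp1 windows and the Ibsp window hold a CCAAT match in reverse orientation, 101, 57 and 54 bases before the start. The second Dmp1 window also holds TGTGGT in reverse, 164 bases before the start, and the Ibsp window holds TATAAA in reverse, 28 bases before it. Ifitm5 holds none of the 5 motifs. Among the 32851 promoters of the same length in the table, 37.41% hold CCAAT, 16.76% TGTGGT, 13.62% TATAAA, 6.453% TGCGGT and 5.291% TAATTA. These short matches are frequent and describe letters, not binding.

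Dmp1, an acidic phosphoprotein of bone matrix that osteocytes make, differed most between the genotypes among these genes. In the proximal mandible it read 9.19, 10.23 and 10.71 on mutant arrays, against 7.11, 8.10 and 7.38 on control arrays. Every mutant array there lay more than 1 log2 unit above every control array. The difference was 2.51 ± 0.321 (SE), or 5.69-fold, with an adjusted p of 0.000347 (limma, Benjamini-Hochberg over 13850 genes). It stayed past the threshold of 0.05 in all 22 alternative fits (2.18 to 2.94, adjusted p 1.88e-05 to 0.0145). The second probe set of the gene gave 2.86 ± 0.363 there when every probe set was tested on its own (adjusted p = 0.000429). The third read 6.93, 8.02 and 8.05 on mutant arrays, against 5.08, 5.57 and 5.31 on control arrays. Those 3 mutant arrays were the only ones of 24 where it exceeded the 40th percentile, so it was tested through them alone and no difference is given for it.

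Elsewhere Dmp1 was low. In the proximal maxilla it read 6.77, 7.74 and 7.80 on mutant arrays and 6.72, 6.58 and 6.42 on control arrays. The groups did not overlap, but mutant replicate 1 lay next to the controls, and the difference of 0.86 ± 0.321 did not pass (adjusted p = 0.123). Without mutant set 1 it was 1.19 and passed (adjusted p = 0.0184). Distal maxilla Dmp1 read 6.86, 6.80 and 7.36 on mutant arrays and 6.54, 6.33 and 6.39 on control arrays, again without overlap (0.59 ± 0.321, adjusted p = 0.288). In the distal mandible it read 6.25, 5.96 and 6.22 on mutant arrays and 6.28, 5.78 and 6.19 on control arrays. None of these 6 arrays lay above the 40th percentile, so a change of Dmp1 in the distal mandible was not measurable here (0.06, 95% interval -0.61 to 0.73). Averaged over the 4 regions the gene was 2.01-fold higher in mutants (1.00 ± 0.161, adjusted p = 0.000127), which was lost when each set was reduced to 1 value (adjusted p = 0.0604).

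Phex, the X-linked endopeptidase of osteoblasts and osteocytes that restrains FGF23, followed the same regional order in part. In the proximal mandible it read 10.68, 10.99 and 10.84 on mutant arrays, against 9.49, 10.57 and 9.89 on control arrays. The groups stood apart by little, since control replicate 2 came close to the mutants, and the difference of 0.85 ± 0.394 did not pass (adjusted p = 0.235). Proximal maxilla Phex read 8.14, 9.42 and 9.17 on mutant and 8.45, 8.84 and 8.85 on control arrays, which overlapped (0.19 ± 0.394). In the distal mandible it read 8.36, 8.34 and 7.49 on mutant and 7.64, 7.63 and 8.99 on control arrays. In the distal maxilla the mutant arrays read 7.59, 8.72 and 7.88 and the control arrays 8.53, 8.0 and 8.61. Both distal ends overlapped between genotypes. The second Phex probe set never exceeded the 40th percentile.

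Mepe, the matrix phosphoglycoprotein of osteocytes, was not above the 40th percentile on any of the 24 arrays and was not tested. Its group means ran from 5.65 to 5.90. Of the osteocyte genes measured here, by the brightest probe set, Phex thus exceeded this level on all 24 arrays, Dmp1 on 18 and Mepe on none.

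Ifitm5, a small membrane protein of osteoblasts also called BRIL, was high in the proximal mandible of both genotypes. It read 12.39, 12.02 and 12.20 on mutant arrays, against 10.76, 12.03 and 11.27 on control arrays. The groups overlapped, because control replicate 2 lay just above the lowest mutant array (0.85 ± 0.299, adjusted p = 0.110). In the proximal maxilla the order was the other way round: 9.16, 8.64 and 9.44 on mutant arrays and 10.27, 9.78 and 9.91 on control arrays. All 3 mutant arrays lay below all 3 control arrays there (-0.90 ± 0.299, adjusted p = 0.0827). At the distal ends the genotypes overlapped, with 9.93, 9.46 and 9.25 on mutant and 9.34, 9.51 and 10.24 on control arrays in the mandible. In the distal maxilla mutants read 8.67, 8.69 and 8.41 and controls 8.99, 8.21 and 8.90.

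Sp7, the osteoblast transcription factor osterix, had the same pair of shifts. Its proximal mandible values were 11.55, 11.01 and 11.31 on mutant arrays, against 10.16, 11.09 and 10.56 on control arrays. The highest control array, replicate 2, lay inside the mutant range (0.69 ± 0.249, adjusted p = 0.120). Its proximal maxilla values were 9.01, 8.96 and 9.39 on mutant arrays and 10.07, 9.87 and 10.01 on control arrays. Here all mutant arrays were lower, and Sp7 fell 0.862 ± 0.249 (log2), or to 0.550 of control, just past the threshold (adjusted p = 0.0485). The call held in 9 of 22 alternative fits (adjusted p 0.0329 to 0.225, difference -1.0 to -0.78), and it was lost without 5 of the 6 sets, those of mutant replicate 1 and 2 and of control replicate 1, 2 and 3 (adjusted p 0.0798 to 0.225). In the distal mandible Sp7 read 10.16, 9.94 and 9.45 on mutant and 10.02, 10.35 and 10.45 on control arrays. In the distal maxilla it read 9.41, 9.33 and 8.91 on mutant and 10.19, 9.25 and 9.50 on control arrays. At both distal ends the means were lower in mutants but the arrays overlapped (-0.42 and -0.43, SE 0.249, adjusted p = 0.454 and 0.321).

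Alpl, the tissue-nonspecific alkaline phosphatase that frees phosphate for mineral, and Ibsp, bone sialoprotein, are earlier osteoblast products. Proximal mandible Alpl read 11.36, 11.27 and 11.40 on mutant arrays, against 10.18, 11.24 and 10.46 on control arrays. Mutant arrays were tightly grouped just above control replicate 2 (0.72 ± 0.247, adjusted p = 0.101). Proximal maxilla Alpl read 9.40, 9.39 and 9.63 on mutant and 9.93, 9.71 and 9.87 on control arrays, with all mutant arrays lower (-0.37 ± 0.247, adjusted p = 0.425). In the distal mandible it read 11.07, 10.92 and 10.81 on mutant and 10.75, 11.10 and 10.86 on control arrays. In the distal maxilla the mutant arrays read 10.35, 9.73 and 9.48 and the control arrays 10.18, 9.22 and 9.48, and both distal ends overlapped.

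Ibsp read 13.78, 13.75 and 13.74 on mutant arrays of the proximal mandible, against 12.40, 13.29 and 12.98 on control arrays. The mutant arrays lay close together and above all controls (0.87 ± 0.514, adjusted p = 0.383). Proximal maxilla Ibsp read 10.93, 10.70 and 11.16 on mutant and 12.13, 11.48 and 11.33 on control arrays, again with all mutant arrays lower (-0.71 ± 0.514, adjusted p = 0.462). Its second probe set differed by -1.48 ± 0.453 there (adjusted p = 0.0746) and by 0.61 ± 0.453 in the proximal mandible. In the distal mandible Ibsp read 12.62, 12.43 and 11.79 on mutant and 12.03, 12.13 and 12.68 on control arrays. In the distal maxilla it read 11.31, 10.80 and 9.89 on mutant and 11.06, 8.13 and 10.45 on control arrays. Control replicate 2 of the distal maxilla stood far below the others and set the wide spread of this gene. The brightest probe set differed by -0.0041 ± 0.514 in the distal mandible and by 0.79 ± 0.514 in the distal maxilla. For the second probe set these were -0.76 ± 0.453 and 0.0075 ± 0.453. Averaged over the regions the 2 probe sets had opposite signs (0.23 ± 0.257 and -0.41 ± 0.227), and none of these differences passed.

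Cdh11, osteoblast cadherin, is also made by mesenchyme at large and was near the top of the intensity range in all groups. Its proximal mandible values were 13.78, 13.82 and 13.82 on mutant arrays, against 13.60, 13.48 and 13.64 on control arrays. All mutant arrays were higher, by 0.24 ± 0.0567 or 1.18-fold (adjusted p = 0.0200), and the call held in 13 of 22 alternative fits (adjusted p 0.00333 to 0.148). In the other regions it read 13.85, 13.86 and 13.80 on mutant and 13.79, 13.73 and 13.69 on control arrays of the distal mandible. Distal maxilla Cdh11 read 13.74, 13.92 and 13.89 on mutant and 13.73, 13.68 and 13.71 on control arrays. Proximal maxilla Cdh11 read 13.87, 13.93 and 13.80 on mutant and 13.72, 13.72 and 13.65 on control arrays. Within each region the mutant arrays lay above the control arrays, and the average was 0.16 ± 0.0283 higher (adjusted p = 0.000280; 0.139 with 1 value per set). The second probe set averaged 0.20 higher, and region by region it gave other calls: it did not pass in the proximal mandible (0.18 ± 0.0714, adjusted p = 0.175) and passed in the distal maxilla (0.27 ± 0.0714, adjusted p = 0.0359).

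**Figure D1:**
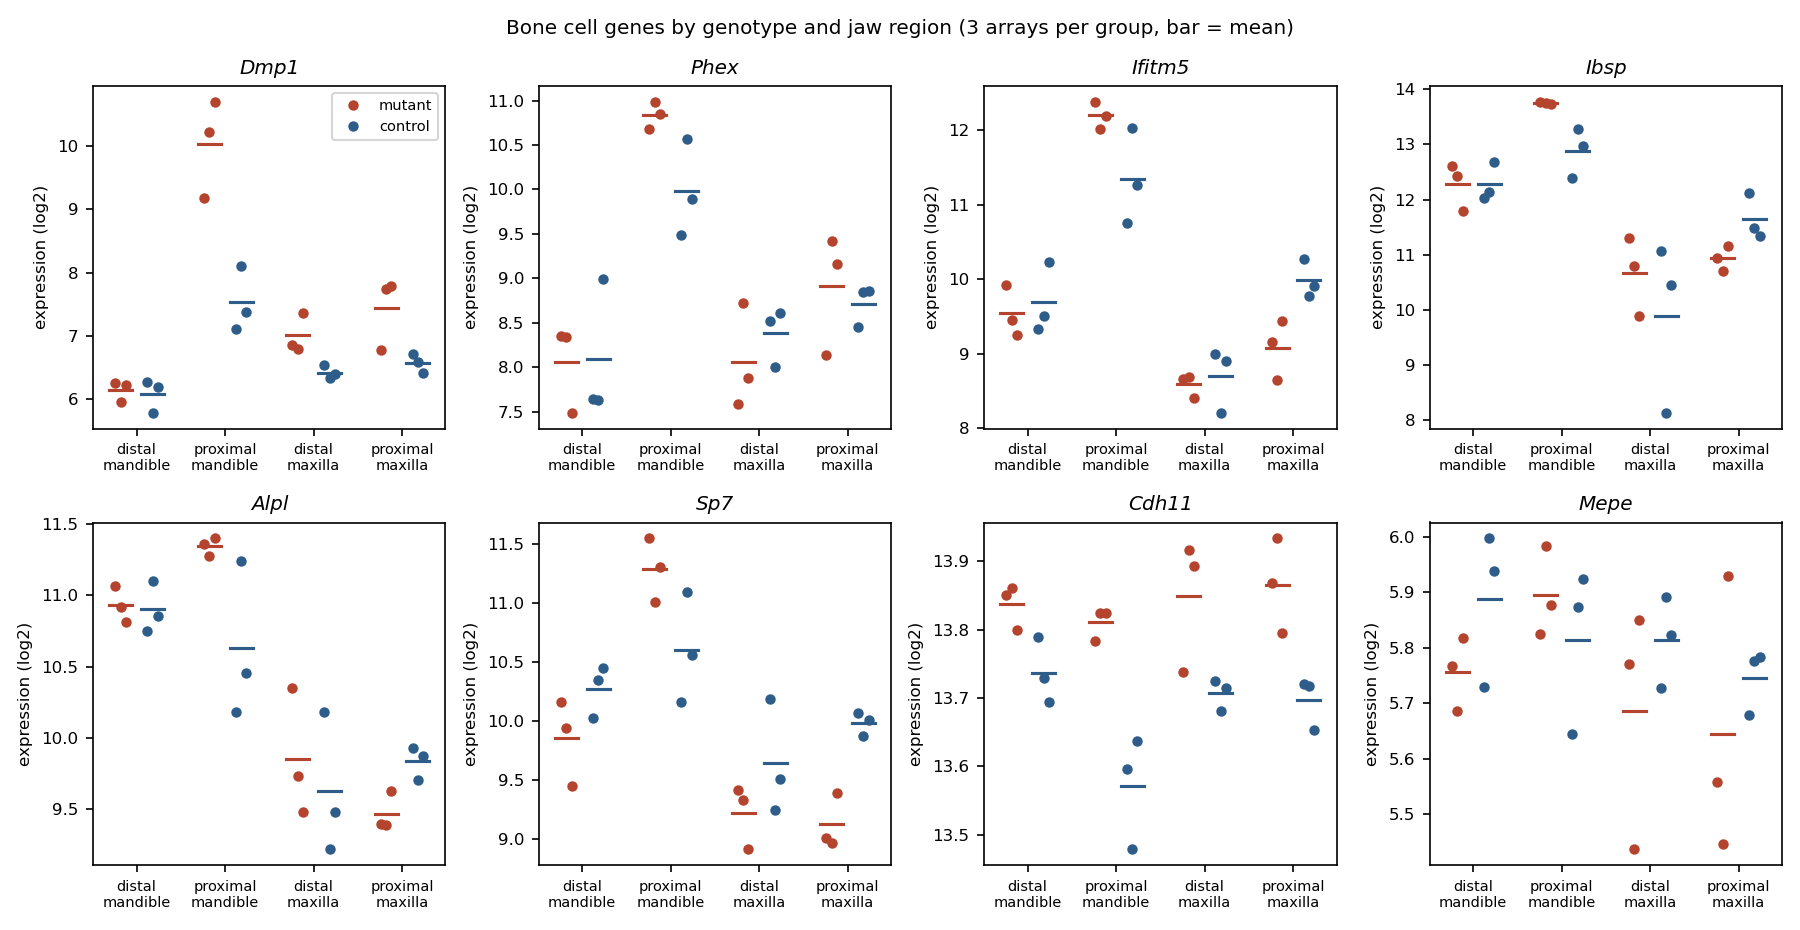
Log2 expression of the 8 measured bone cell genes, 1 panel per gene, in the 4 jaw regions, with mutant arrays (red) left of control arrays (blue), points in order of replicate 1 to 3 and bars at the mean of 3 arrays; vertical axes differ between panels. Dmp1 in the mutant proximal mandible (9.19 to 10.71) stands above all other groups, and Mepe stays between 5.44 and 6.0.

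Counted by comparison, 2 of 7 tested genes (Dmp1, Cdh11) rose on average over the regions, where 18.3% of all genes tested rose and 15.5% fell. With 1 value per set neither passed. In the proximal mandible the same genes, Dmp1 and Cdh11, rose, against 2.85% of all genes. There 6 of 7 had an unadjusted p under 0.05 (19.6% of all genes), and 5 of 7 were higher on every mutant array (15.4% of all genes). The median difference of the 7 genes was 0.85, against 0.0032 over all genes. The genes were chosen with earlier results of these data known, and most of them were correlated over the arrays. Counts of them are therefore not counts of separate observations. In the proximal maxilla 1 of 7, Sp7, fell (2.38% of all genes fell and 3.32% rose) and 4 had an unadjusted p under 0.05 (21.4%). Dmp1 and Cdh11 were higher on every mutant array there (13.9% of all genes) and Alpl, Ibsp, Ifitm5 and Sp7 were lower on every one (10.9%). The median difference was -0.37, against 0.019 over all genes. No gene of the 7 passed limma's test in the distal mandible (0.895% of all genes), where none had an unadjusted p under 0.05 (15.1%). None passed in the distal maxilla either (7.08%), where only Cdh11 had an unadjusted p under 0.05 (22.5%).

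**Figure D2:**
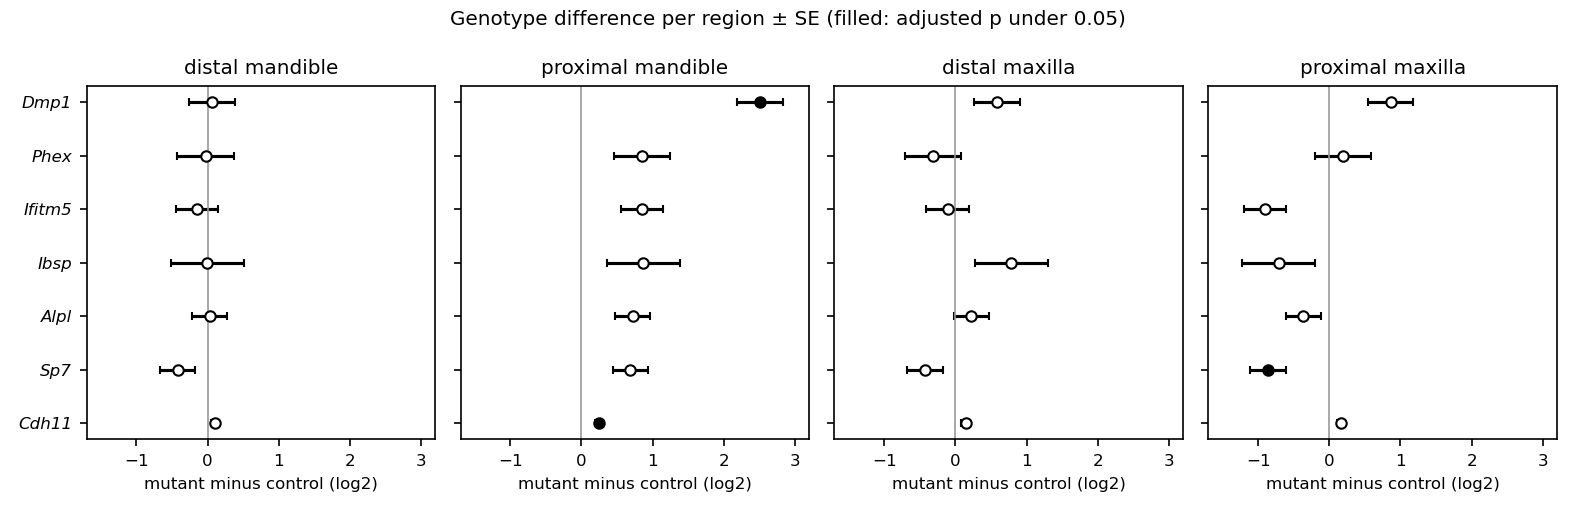
Mutant minus control difference (log2, horizontal axis) of the 7 tested genes in each region, with bars of 1 SE from limma and 3 arrays per group; filled points passed an adjusted p of 0.05. Filled points are Dmp1 (2.51) and Cdh11 (0.24) in the proximal mandible and Sp7 (-0.86) in the proximal maxilla.

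The 6 genes with a wide range moved together from array to array within the control proximal mandible. Replicate 2 was the highest of the 3 control arrays there for all 6 (Dmp1, Phex, Ifitm5, Ibsp, Alpl and Sp7), and replicate 1 was the lowest for all 6. With control replicate 2 of the proximal mandible left out, an alternative added after seeing the data, 4 genes passed in that region: Dmp1, Alpl (1.02, adjusted p = 0.0206), Ifitm5 (1.18, adjusted p = 0.0312) and Sp7 (0.93, adjusted p = 0.0477). Cdh11 then missed the threshold (adjusted p = 0.0774). That array was the highest control for the other genes, so leaving it out could only widen their differences. Over all 22 alternative fits the difference ran from 0.50 to 1.02 for Alpl, which passed in 2 of them. For Ifitm5 it ran from 0.55 to 1.18 (passed in 2) and for Sp7 from 0.47 to 0.93 (passed in 1). A like pattern held in the control distal maxilla, where replicate 2 was the lowest array for all 6 genes.

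**Figure D3:**
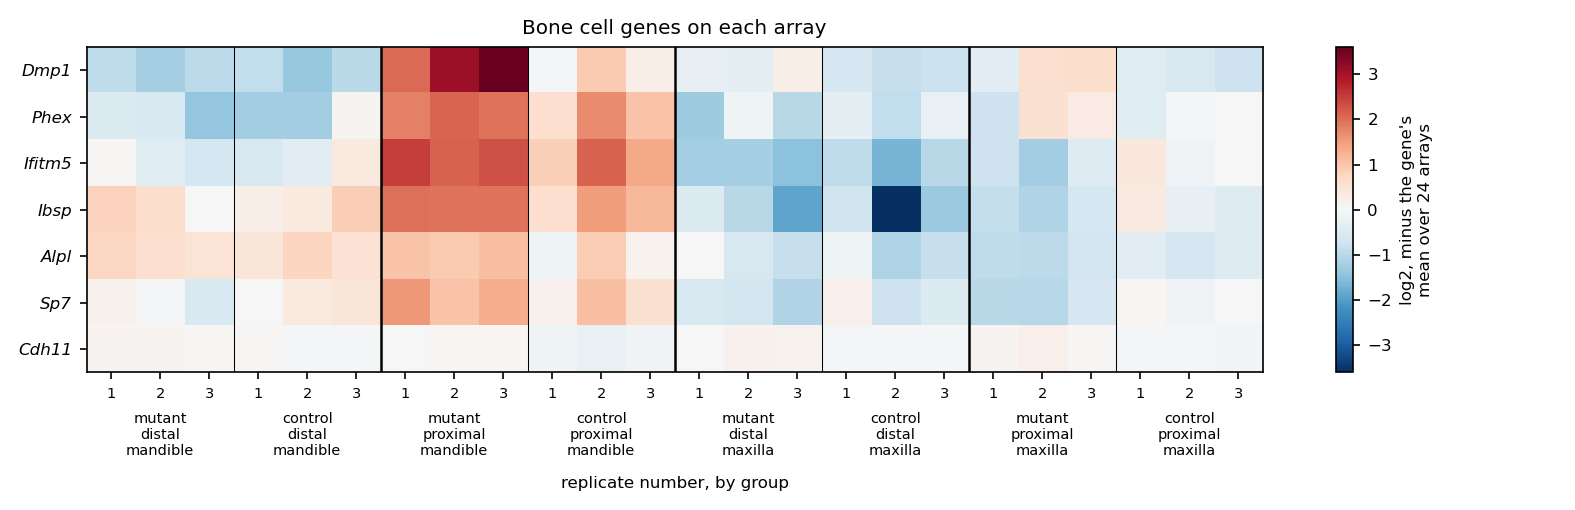
Each of the 24 arrays (columns, replicate 1 to 3 within a group, mutant left of control in each region) and the 7 tested genes (rows), coloured by log2 value minus the gene's mean over the 24 arrays. The 3 mutant proximal mandible arrays are high for 6 genes, and control replicate 2 of the proximal mandible is the control array most like them.

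In the proximal mandible none of 15 tested cartilage genes passed (median difference 0.65), and their summed level was 15.65 to 16.01 on mutant arrays and 14.65 to 15.68 on control arrays (log2 of the sum). None of 12 skeletal muscle genes passed there (median -0.15, summed level 14.55 to 14.72 in mutants and 14.49 to 15.12 in controls), nor did any of 5 osteoclast genes (summed level 11.64 to 12.18 in mutants and 11.46 to 11.97 in controls). Of 6 tendon genes 2 fell in the proximal mandible (summed level 11.64 to 11.93 in mutants and 12.13 to 12.52 in controls). There 742 of all 13850 genes passed in either direction. In the proximal maxilla 2 tendon genes fell, against 2.38% of all genes (12.03 to 12.35 in mutants and 12.60 to 12.96 in controls). No cartilage gene passed in the proximal maxilla (median -0.25, summed level 14.16 to 15.18 in mutants and 14.62 to 15.45 in controls). Other lists stood apart between genotypes in the proximal mandible although none of their genes passed there. Of all single genes 15.4% were higher on every mutant array in that region, and no such share was taken over lists. The 2 tested tooth matrix genes summed to 9.08 to 9.63 on mutant and 7.97 to 9.05 on control arrays, 5 Schwann cell genes to 12.25 to 12.35 and 11.76 to 12.02, and 5 maxilla identity genes to 14.31 to 14.48 and 14.06 to 14.18. The tooth genes also stood apart in the distal maxilla (7.90 to 8.41 in mutants and 6.60 to 7.39 in controls), where 1 of the 2 rose. There 7.08% of all genes passed in either direction. The part of these tissues in the bone gene values was not tested.

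Whether the genotype effect differed between regions was tested directly. None of the 7 genes passed any of these differences in limma, nor did any of the 13850 genes (0% in each). Mandible minus maxilla at the proximal ends, a contrast added after seeing the data, gave 5 of 7 genes an unadjusted p under 0.05, against 4.30% of all genes. These were Ifitm5 (1.75 ± 0.422, 95% interval 0.87 to 2.64, adjusted p = 0.328), Sp7 (1.55 ± 0.352, interval 0.81 to 2.29, adjusted p = 0.328), Dmp1 (1.65 ± 0.454, adjusted p = 0.440), Alpl (1.08 ± 0.349, adjusted p = 0.699) and Ibsp (1.58 ± 0.727, adjusted p = 1.00). Without control replicate 2 of the proximal mandible, the highest control array there, Ifitm5 and Sp7 passed (adjusted p = 0.0357 and 0.0369). Each passed in only 1 of 23 alternative fits, with differences from 1.31 to 2.20 and from 1.29 to 1.85. At the distal ends none of 7 had an unadjusted p under 0.05 (3.04% of all genes). Averaged over the ends the mandible minus maxilla difference gave 2 of 7, Ifitm5 and Sp7 (3.47%).

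The genotype effect in the mandible, distal minus proximal, gave 3 of 7 genes an unadjusted p under 0.05 in limma (3.99% of all genes). They were Dmp1 (-2.45 ± 0.454, adjusted p = 0.136), Sp7 (-1.11 ± 0.352) and Ifitm5 (-1.0 ± 0.422). For Dmp1 it passed with the set as a random replicate block (adjusted p = 0.0267) and without mutant set 1 (adjusted p = 0.00692), and not with the set as a fixed block (adjusted p = 0.0674). All 6 distal mandible arrays of Dmp1 lay below the 40th percentile, so the size of this difference and these passes rest on values at the low end of the scale. In the maxilla none of 7 did (2.85%), and averaged over the jaws 1 of 7 did, Dmp1 (3.10%).

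Within each genotype the design also compares the ends of a jaw. In the mutant mandible 4 of 7 genes were lower distally than proximally (8.33% of all genes fell and 7.57% rose). The log2 differences were -3.90 ± 0.321 for Dmp1, -2.78 ± 0.394 for Phex, -2.66 ± 0.299 for Ifitm5 and -1.44 ± 0.249 for Sp7, with adjusted p from 5.11e-07 to 0.000422. Ibsp was lower on all distal arrays (-1.48 ± 0.514, adjusted p = 0.0584) and passed with the set as a block, which pairs the ends (adjusted p = 0.00839). Its second probe set passed without a block (-2.77 ± 0.453, adjusted p = 0.000342). Alpl was lower on all distal arrays too (-0.41 ± 0.247, adjusted p = 0.308) and Cdh11 differed by 0.03. In the control mandible 3 of 7 were lower distally (7.08% of all genes fell and 6.24% rose), Phex with -1.90 ± 0.394, Ifitm5 with -1.66 ± 0.299 and Dmp1 with -1.45 ± 0.321 (adjusted p = 0.00260, 0.000770 and 0.00429). Without control set 2 Phex and Dmp1 missed the threshold (adjusted p = 0.118 and 0.175). The others did not pass (Ibsp -0.61, Sp7 -0.33, Alpl 0.28). Cdh11 was 0.17 higher distally and passed with the block alone (adjusted p = 0.0604 without and 0.0286 with it). For Dmp1 no distal mandible array lay above the 40th percentile in either genotype, and whether its signal there exceeded background was not tested.

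In the mutant maxilla no gene differed between the ends (5.15% of all genes did), and Phex alone had an unadjusted p under 0.05 (-0.85 ± 0.394; 16.3% of all genes). The other differences were -0.49 for Ifitm5, -0.43 for Dmp1, -0.27 for Ibsp, -0.02 for Cdh11, 0.09 for Sp7 and 0.38 for Alpl. In the control maxilla 2 of 7 were lower distally (2.69% of all genes fell), Ibsp by 1.77 ± 0.514 and Ifitm5 by 1.29 ± 0.299 (adjusted p = 0.0476 and 0.0121). With the set as a block Ibsp missed the threshold (adjusted p = 0.0928), and without control set 2 its difference was -0.97. Its second probe set passed (-1.90 ± 0.453, adjusted p = 0.0193). Ifitm5 missed it without any 1 of the 3 control sets (adjusted p 0.0623 to 0.0648). The others were Sp7 and Phex (-0.34 each), Alpl (-0.21), Dmp1 (-0.16) and Cdh11 (0.01).

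Between the jaws, 6 of 7 genes were called higher in the mandible at the mutant proximal ends (2.73% of all genes) and 1 at the mutant distal ends (1.71%). In controls 3 were called at the distal ends (3.51%) and 1 at the proximal ends (0.968%). The control counts do not follow the size of the differences, whose median over the 7 genes was 0.63 at the distal and 0.96 at the proximal ends. In mutant embryos 6 of 7 genes, all but Cdh11 (-0.05), were higher in the proximal mandible than in the proximal maxilla (2.73% of all genes): Ifitm5 by 3.12 ± 0.299, Ibsp by 2.82 ± 0.514, Dmp1 by 2.61 ± 0.321, Sp7 by 2.17 ± 0.249, Phex by 1.93 ± 0.394 and Alpl by 1.87 ± 0.247. These are 8.68-fold, 7.08-fold, 6.09-fold, 4.50-fold, 3.80-fold and 3.66-fold, with adjusted p from 9.70e-06 to 0.00550. The second Ibsp probe set differed by 4.29 ± 0.453, more than any of these. Without mutant set 1 Phex missed the threshold (1.62, adjusted p = 0.0595). In control embryos Ifitm5 alone passed (1.37 ± 0.299, 2.58-fold, adjusted p = 0.0164; 0.968% of all genes rose), although all 7 had an unadjusted p under 0.05 (11.0% of all genes). The other control differences were 1.27 for Phex, 1.24 for Ibsp, 0.96 for Dmp1, 0.79 for Alpl, 0.62 for Sp7 and -0.13 for Cdh11. The second Ibsp probe set passed here (2.19 ± 0.453, adjusted p = 0.0145). The difference of these jaw differences between genotypes is the proximal contrast given above, which no gene passed. With the set as a fixed block, which pairs the jaws, no gene passed in controls (Ifitm5 adjusted p = 0.0639), and with it as a random block Ifitm5, Phex and Dmp1 did (adjusted p = 0.00570, 0.0297 and 0.0408). Ifitm5 also missed the threshold without control set 2 (0.92, adjusted p = 0.251) or 3 (adjusted p = 0.187), and without the control proximal mandible array of replicate 2 (adjusted p = 0.0960) or 3 (adjusted p = 0.0530).

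At the distal ends Alpl was higher in the mandible in both genotypes, by 1.08 ± 0.247 in mutants (adjusted p = 0.0137; 1.71% of all genes rose) and by 1.27 ± 0.247 in controls (adjusted p = 0.00197; 3.51% rose). Ibsp was higher by 1.61 ± 0.514 in mutants (adjusted p = 0.0875) and by 2.40 ± 0.514 in controls (adjusted p = 0.00432). Ifitm5 was higher by 0.95 ± 0.299 in mutants (adjusted p = 0.0796) and by 1.00 ± 0.299 in controls (adjusted p = 0.0416). So 1 of 7 passed in mutants and 3 of 7 in controls. The second Ibsp probe set passed in both (1.93 ± 0.453, adjusted p = 0.0210 in mutants and 2.70 ± 0.453, adjusted p = 0.000789 in controls). Dmp1 ran the other way, lower on all mandible arrays of both genotypes, by -0.87 ± 0.321 in mutants (adjusted p = 0.163) and -0.34 in controls, with its mandible arrays below the 40th percentile. It passed in mutants with the set as a random block (adjusted p = 0.0476) and without mutant set 1 (adjusted p = 0.0415). Sp7 differed by 0.64 in mutants and 0.63 in controls, Phex by -0.0044 and -0.29, and Cdh11 by -0.01 and 0.03, none passing. With the set as a fixed block Ibsp and Ifitm5 passed in mutants (adjusted p = 0.0169 and 0.0308) and Ifitm5 missed in controls (adjusted p = 0.0988). Single sets decided some of these calls: without mutant set 2 or 3 Alpl missed in mutants (adjusted p = 0.111 and 0.206). Without control set 3 none of the 3 passed in controls, and without control set 2 Ifitm5 did not (adjusted p = 0.186).

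**Figure D4:**
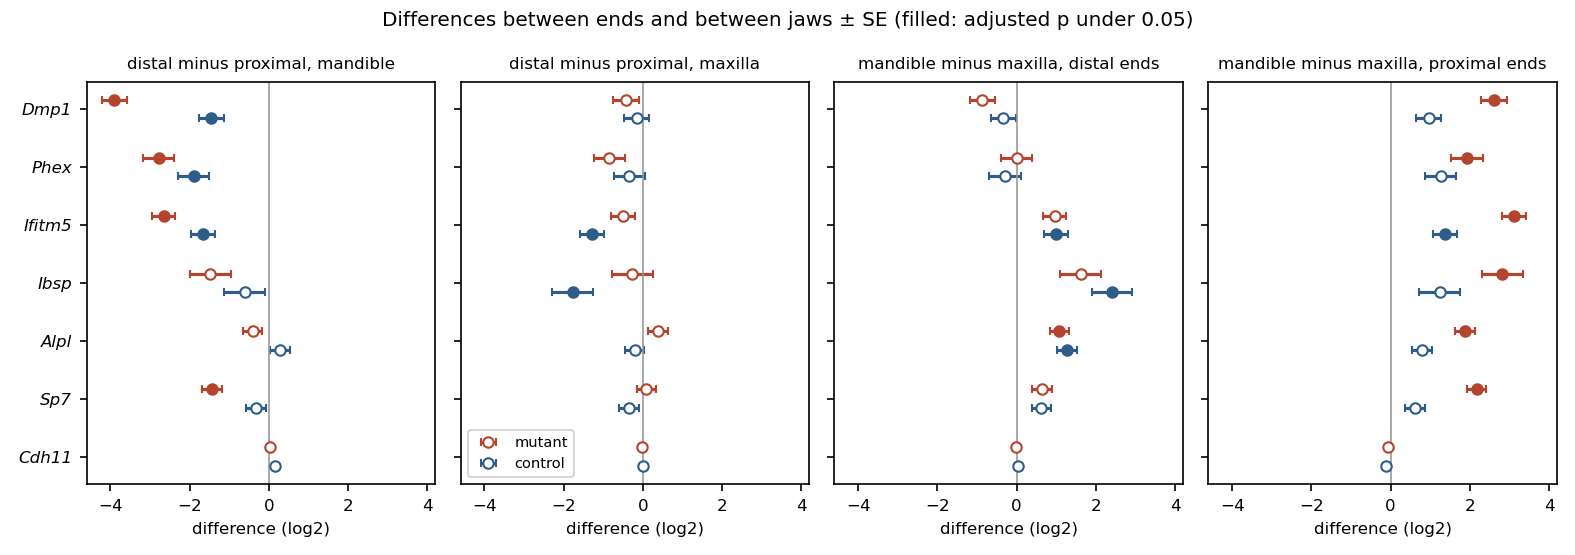
Difference between the ends of a jaw (left 2 panels, distal minus proximal) and between the jaws (right 2 panels, mandible minus maxilla) in log2, with bars of 1 SE, mutant (red) above control (blue) for each of the 7 tested genes; filled points passed an adjusted p of 0.05. At the proximal ends 6 mutant points and 1 control point are filled.

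Ordered by group mean, the mutant proximal mandible was first for all of Dmp1, Phex, Ifitm5, Ibsp, Alpl and Sp7. The control proximal mandible came second for 5 of these 6, with means of 7.53 for Dmp1, 9.98 for Phex, 11.35 for Ifitm5, 12.89 for Ibsp and 10.60 for Sp7. For Dmp1 the control proximal mandible (7.53 ± 0.508) and the mutant proximal maxilla (7.43 ± 0.575, SD, n = 3) did not differ beyond their spread. For Ibsp the next groups were the control distal mandible (12.28 ± 0.351) and the mutant distal mandible (12.28 ± 0.434), again within their spread. Alpl was the exception, since the groups after the first were the mutant distal (10.93 ± 0.127), the control distal (10.90 ± 0.178) and the control proximal mandible (10.63 ± 0.549), which overlapped. All 4 mandible groups of Alpl lay above all 4 maxilla groups. Cdh11 was ordered by genotype instead, with the 4 mutant groups (13.81 to 13.87) above the 4 control groups (13.57 to 13.74).

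Over the 24 arrays, which share their 8 groups and their sets, most of the genes were correlated. Sp7 and Ifitm5 had a Pearson r of 0.92, Ibsp and Ifitm5 0.88, Ibsp and Alpl 0.86 and Ibsp and Sp7 0.85. Phex had 0.85 with Ifitm5, 0.84 with Dmp1, 0.71 with Sp7 and 0.40 with Alpl. Dmp1 had 0.70 with Ifitm5, 0.50 with Ibsp and 0.37 with Alpl. Cdh11 ran from -0.40 with Sp7 to 0.10 with Dmp1. Outside these genes, the profile most like that of Ifitm5 was Lipi (r = 0.98), followed by Slc9a2, Cgref1, Panx3 and Timp1 (0.97 to 0.98). Panx3, a pannexin channel of osteoblasts and hypertrophic cartilage, led for Sp7 (0.96), with Clec11a, Smpd3, Omd and Chst13 after it (0.93 to 0.95). Ibsp was most like Sgms2 (0.93), then P4ha2, Col22a1, Panx3 and Clec11a. Alpl was most like Cd1d1 (0.94), then P4ha2, Slc44a1, Lgals3 and Clec11a. Phex was most like Srpx2 (0.92), then Adgrd1, Sec23a, Col24a1 and Car3. Dmp1 was most like Dapk2, a death-associated protein kinase (0.90), then Ern1, Lpar3, Adgrd1 and Gsn (0.87 each). Of these, Dapk2 differed between mutant and control proximal mandible by 0.74 ± 0.184 and Lipi by 0.70 ± 0.213. Both were picked for their likeness on these same arrays, so these differences are partly set by that choice and no test is read from them.

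A wider list of bone cell genes, 30 symbols of which 22 were tested, was read beside them. One of the 22, Sost, exceeded the 40th percentile on 6 mutant and 0 control arrays. It was thus tested only through the mutants and is left out of the counts below. For the proximal mandible, 3 of the remaining 21 rose, against 2.85% of all genes, and none fell, with a median of 0.11. Slc13a5, the citrate transporter of mineralising bone, averaged 10.32 ± 0.204 on mutant and 9.20 ± 0.497 on control arrays (SD, n = 3), a difference of 1.13 ± 0.214 (adjusted p = 0.00673). Smpd3, a sphingomyelinase needed for bone mineral, averaged 11.12 ± 0.166 in mutants and 10.14 ± 0.438 in controls (0.98 ± 0.239, adjusted p = 0.0227). Sost, sclerostin, the WNT inhibitor that osteocytes secrete, averaged 6.53 ± 0.0830 in mutants and 5.71 ± 0.309 in controls, the controls being below that level. Bmp2, a bone morphogenetic protein, rose by 0.56 ± 0.147 (adjusted p = 0.0309).

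In the proximal maxilla none of 21 rose and 1 fell (3.32% of all genes rose and 2.38% fell). The gene that fell was Atf4, a stress and amino acid response factor that osteoblasts need (-0.20 ± 0.0551, adjusted p = 0.0402). Slc13a5 and Smpd3 were at -0.33 and -0.48 without passing (adjusted p = 0.400 and 0.258), and Panx3 and Omd (osteomodulin) at -0.98 and -0.91 (adjusted p = 0.0911 and 0.116). None of 21 passed in the distal maxilla or the distal mandible, where 7.08% and 0.895% of all genes did. Sost was dim in all groups: it read 6.22 to 6.61 on the mutant arrays of both proximal ends and the distal maxilla and 5.44 to 6.05 on the control arrays, where the 40th percentile of an array was 6.26 to 6.34. On average over the regions 3 of 21 rose (Vdr 0.28, Bmp2 0.21, Col1a2 0.09) and 1 fell (Atf4, -0.13). Of all genes tested 18.3% rose and 15.5% fell on average, so these counts do not exceed the share over all genes. These averages count the arrays of a set as separate samples. The main collagen gene Col1a1 did not pass in any region.

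**Figure D5:**
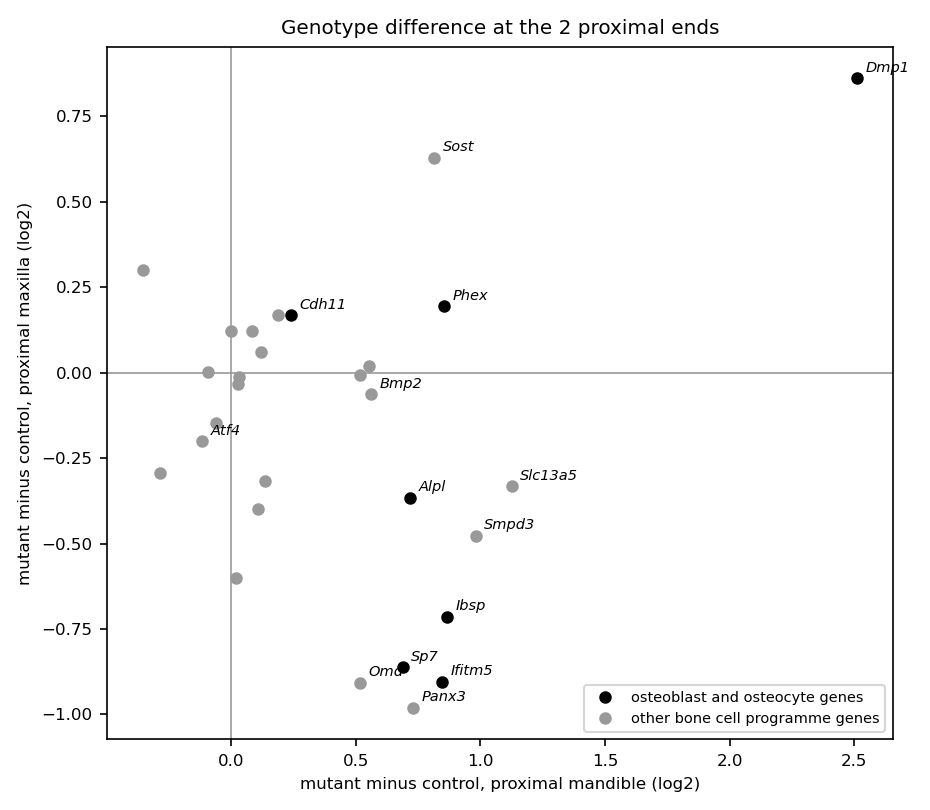
Mutant minus control difference (log2) in the proximal mandible (horizontal axis) and in the proximal maxilla (vertical axis) for the 7 tested osteoblast and osteocyte genes (black) and 22 other bone cell programme genes (grey), with the 7 genes, the called genes and Panx3 and Omd labelled. Dmp1 (2.51 and 0.86) lies in the upper right, as does Sost, whose control arrays were all below the 40th percentile, and Alpl, Ibsp, Sp7 and Ifitm5 in the lower right.

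Between the ends of the mutant mandible, 10 of the 21 fell and 3 rose distally (8.33% of all genes fell and 7.57% rose). The largest falls were Slc13a5 (-2.26 ± 0.214), Panx3 (-2.04 ± 0.334), Smpd3 (-1.95 ± 0.239) and Omd (-1.72 ± 0.332). Those that rose were Msx2 (1.47 ± 0.343), Twist2 (0.92 ± 0.193) and Twist1 (0.55 ± 0.119), transcription factors of cranial mesenchyme and bone precursors. Between the proximal ends of the mutant jaws 9 of 21 were higher in the mandible (2.73% of all genes) and none lower. They were led by Panx3 and Slc13a5 (2.71 each), Smpd3 (2.32) and Omd (2.27). In controls 2 of 21 were higher in the mandible (0.968% of all genes), Slc13a5 (1.25) and Pth1r (0.47). None of the 21 passed a difference of the genotype effect between ends or between jaws, so these end and jaw differences were not shown to differ between genotypes. Zfp33b and Thoc2l, tested genes that lie beyond Spp1 in the chromosome 5 order, were also read on average over the regions. Zfp33b rose (0.38 ± 0.0772, adjusted p = 0.00112 in limma), as did 18.3% of all genes, and Thoc2l did not pass (-0.41 ± 0.164, adjusted p = 0.0639). This average too counts the arrays of a set as separate samples. Dspp lay below the level needed for a test.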

How the data were processed

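Expression was measured on 24 one-colour Affymetrix arrays. The deposited values are log2 intensities, per their range, made by the authors with RMA, per the submitters' processing notes. Its version and which arrays it normalized together are not stated in the sources used here. Gene names came from the platform annotation, where 34958 of 45101 probe sets name 1 symbol. The study gives no depth, and the number of arrays limits the precision. All arrays entered a single limma 3.58.1 fit (R 4.3.3) of 8 group means, leaving 16 residual degrees of freedom, with Benjamini-Hochberg adjustment over 13850 genes and calls under 0.05. Errors are SE from this fit unless marked SD.

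Tested on simulated data for the proximal mandible effect, the fit recovered 88 of 100 genes changed by log2 1 and 99 of 100 changed by log2 2, with 18 others called. The simulated noise was independent between genes and arrays. It held no likeness within a set and no shift shared by many genes, so recovery on the real arrays can differ. Arrays of a set deviated together between the ends (r 0.22 to 0.69 in all 4 genotype and jaw pairs) and between the jaws in 3 of 4 pairs (control proximal jaws down to 0.0040), so the numbers were treated as pairing these samples, on the values alone; genotypes were not paired (r -0.13 to 0.40). Block fits used statmod 1.5.0 (random block correlation 0.40).

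The genes and marker lists were chosen with earlier results of these data known. All 10 genes are named whatever their values, and the 7 tested ones are given in each comparison between groups; for differences of the genotype effect, those with an unadjusted p under 0.05. Of the wider bone list, called genes up to 8 per comparison are named, with a few others chosen after their values were seen. For likeness, the 5 genes of highest Pearson r were named. Alternatives covered probe set choice, filters, normalization, eBayes settings, left-out sets and arrays, blocks, 1 value per set and a Gapdh covariate.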

Additional observations from a re-analysis of the deposited data

Results flagged for a closer look

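Alpl and Ibsp were singled out because every mutant array lay above every control array in the proximal mandible and below every control array in the proximal maxilla. Alpl differed by 0.72 in the proximal mandible and by -0.37 in the proximal maxilla (log2, mutant minus control). Ibsp differed by 0.87 in the proximal mandible and by -0.71 in the proximal maxilla. The difference between the jaws was tested and did not pass for either gene (Alpl 1.08 ± 0.349, adjusted p = 0.699; Ibsp 1.58 ± 0.727, adjusted p = 1.00, limma over 13850 genes). In the proximal mandible the control arrays of both genes spread with replicate, and without control replicate 2 the Alpl difference was 1.02. Over all 22 alternative fits it ran from 0.50 to 1.02.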

How the results depend on the processing

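Of 3031 refitted values of the 7 tested bone genes, 2864 kept direction and side of the threshold, 63 lost a call, 42 gained one and 62 turned the sign of an uncalled value; no called value changed sign. The Dmp1 rise in the proximal mandible held in every refit. The average genotype effect fell to 1612 called genes with the set as a random replicate block and 80 with 1 value per set, which left 0 of the 7 bone genes (main counts 4671 and 2). Averaging probe sets gave, over all genes, 80, 425, 565 and 451 calls (distal mandible, proximal mandible, distal maxilla, proximal maxilla), with the replicate number as a fixed replicate block 310, 1120, 1488 and 1254, and with the Gapdh covariate 889, 2251, 3583 and 2976 (main 124, 742, 980 and 789); in the distal mandible, no filter gave 68 and the random replicate block 68. Among the 7 bone genes, 1 was called in the proximal mandible after shifting arrays to one median, and 1 in the distal maxilla with the mean of probe sets or the Gapdh covariate (main 2 and 0). In the proximal maxilla 0 were called with the mean of probe sets, without a filter or with the random replicate block, 2 with trended robust eBayes and 3 with the Gapdh covariate (main 1). The end difference of the genotype effect in the mandible had 1 call with the random replicate block (main 0). Between mutant distal ends 2 were called with the mean of probe sets, 4 with the random and 3 with the fixed set as replicate block (main 1). Between control proximal jaws 3 were called with the random and 0 with the fixed replicate block (main 1). In the control maxilla 1 was called without a filter or with the fixed replicate block (main 2).

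Leaving out sets or arrays in turn gave 2902 to 6971 called genes on average, 2 to 2912, 60 to 1826, 58 to 3414 and 84 to 2617 in the 4 regions in the order above. For the 7 bone genes it gave 1 to 4 calls in the proximal mandible, 0 to 1 in the proximal maxilla, 0 to 1 for the end difference of the genotype effect over both jaws and 0 to 1 within the mandible. The proximal jaw difference had 0 to 2. For ends, calls ran from 1 to 4 in the control mandible and 0 to 1 in the control maxilla. For jaws they ran from 0 to 3 at mutant distal, 0 to 4 at control distal and 0 to 2 at control proximal ends. Leaving out single proximal mandible arrays, the set as a fixed block for differences of the genotype effect, the jaw difference of that effect at 1 end and tests of single probe sets were added after seeing the data. Where a count changed, the cause was not tested. Leaving out arrays also leaves fewer degrees of freedom. Low values limit Mepe, Sost and distal mandible Dmp1.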
